A study of Mus musculus with 3 samples.

Results

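The RUNX and C/EBP transcription factor genes were described in granulosa cells around ovulation through histone H3 trimethylated on lysine 4 (H3K4me3), a histone mark of active and poised promoters. The group was given by name and held 8 of the 21887 protein-coding genes examined, namely Runx1, Runx2, Runx3, their partner gene Cbfb, and Cebpa, Cebpb, Cebpd and Cebpg. Peaks inside each gene or within 5 kb of it were assigned to that gene, which took in 57 of 66567 peaks in all. The libraries came from granulosa cells of wild-type C57BL/6 female mice aged 21 to 28 days. Every mouse received 4 IU of eCG (equine chorionic gonadotropin), which promotes follicle growth. Cells were taken before hCG (human chorionic gonadotropin, which acts through the LH receptor and triggers ovulation), called 0 h, and at 4 h and 12 h after 5 IU of it. There was 1 library per time, and how many mice each library pooled is not stated in the labels. Differences between times could not be set against a spread between replicates, so no test is given. In such bulk samples a change in the mark per cell and a change in the mix of cells cannot be told apart.

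RUNX proteins bind DNA through their Runt domain, and CBFB, which does not bind DNA itself, joins them and strengthens that binding. Each Runx gene has a distal promoter, P1, and a proximal one inside the gene, P2, which give proteins with different first residues. C/EBP proteins bind DNA as pairs held together by a leucine zipper, and members of the family can pair with each other. In the mouse ovary, Runx1, Runx2 and Cebpb are known to be induced in granulosa cells by the ovulatory LH surge, and loss of Cebpb impairs formation of the corpus luteum.

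At 4 h the mark covered more DNA at Runx1, Runx2, Cebpa and Cebpb than at 0 h, by 2.15-fold to 4.44-fold. Cbfb and Cebpd, at 1.18-fold and 1.32-fold, and Cebpg, which differed by 3 bp, stayed below the 2-fold limit. At 12 h the covered length was below that at 4 h at Runx2, Cebpa, Cebpb and Cebpg, and above it at Runx1, Cbfb and Cebpd. Runx3 had no peak at any time. Covered bp means the number of bases under peaks, and a gene was called broader or narrower when this length differed by at least 2-fold or when a peak was present at only one of the times compared.

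**Figure D1:**
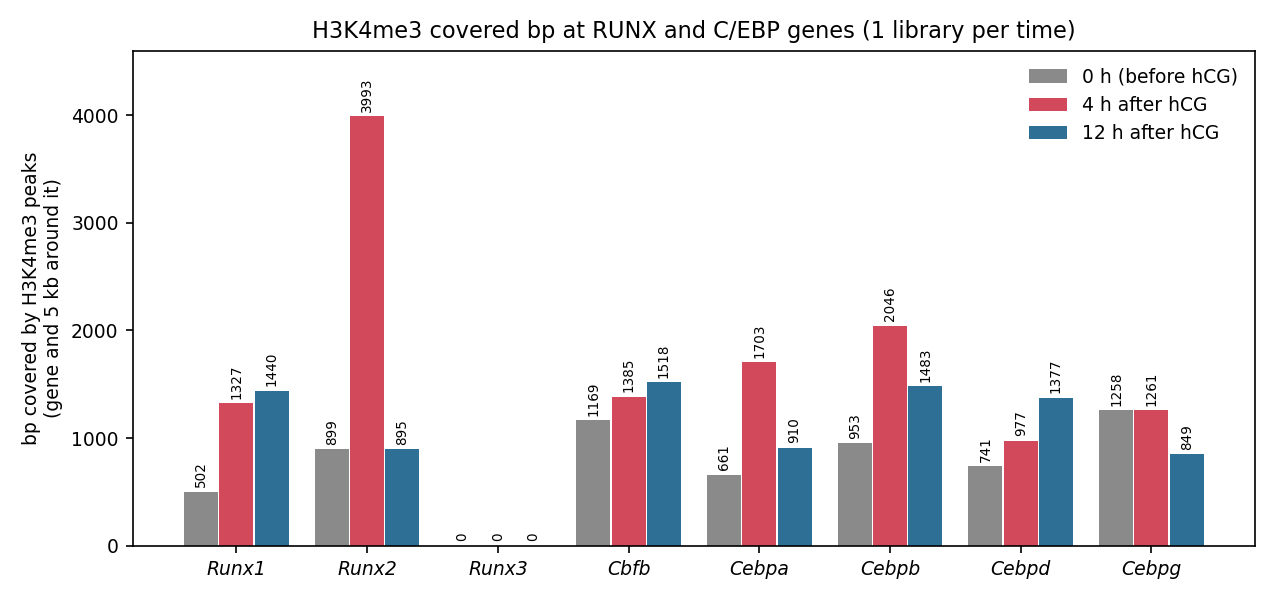
The bars give the bp covered by H3K4me3 peaks in each gene and 5 kb around it at 0 h, 4 h and 12 h, with 1 library per bar and the value above it. Runx2 has the tallest bar, 3993 bp at 4 h, and Runx3 has 0 at all times.

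The files hold no read depth, peak height or score, so breadth is the only quantity that can be compared. The lists held 22236, 23662 and 20669 peaks at 0 h, 4 h and 12 h, and the narrowest peaks were 136, 139 and 152 bp wide. Annotated gene starts had a peak within 1 kb in 48.9%, 50.4% and 48.7% of cases, against 3.02%, 3.37% and 3.12% for positions 100 kb away, so the peaks and the GRCm38 (mm10) annotation share a build. The labels put the 12 h library in lane 5 and both others in lane 4, and its peak names lack the tag nolambda that theirs carry. Lane, any difference in peak calling and time cannot be told apart for 12 h. Across all genes with a peak at both times, the median log2 ratio of covered bp was 0.12 for 4 h over 0 h, -0.14 for 12 h over 4 h and -0.02 for 12 h over 0 h.

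The promoters of the Runx genes are shown first because the mark was so unevenly divided among them. The reference used here lists P1 and P2 starts for Runx1 and Runx3 and 1 start for Runx2, called P1 here. The P1 sequences are set side by side because they share a run of 18 bases, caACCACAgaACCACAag, which holds the RUNX-binding letters TGTGGT on the reverse strand (ACCACA) 2 times. The search of 21263 promoters of the same length, on both strands, found this run in 3, and these were the P1 promoters of Runx1, Runx2 and Runx3. The sequences run from 250 bases before the start to 50 after it in the direction of the gene, are those of RefSeq on GRCm38.p6, and carry TGTGGT or ACCACA in capitals.
Runx1 P1 (chr16:92826025-92826324, minus strand): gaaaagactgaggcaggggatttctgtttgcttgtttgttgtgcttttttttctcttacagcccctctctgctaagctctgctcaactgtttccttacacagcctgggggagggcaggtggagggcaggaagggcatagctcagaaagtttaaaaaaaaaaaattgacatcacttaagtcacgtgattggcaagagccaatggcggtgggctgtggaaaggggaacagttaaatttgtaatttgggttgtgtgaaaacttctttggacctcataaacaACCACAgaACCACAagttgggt
Runx2 P1 (chr17:44814578-44814877, minus strand): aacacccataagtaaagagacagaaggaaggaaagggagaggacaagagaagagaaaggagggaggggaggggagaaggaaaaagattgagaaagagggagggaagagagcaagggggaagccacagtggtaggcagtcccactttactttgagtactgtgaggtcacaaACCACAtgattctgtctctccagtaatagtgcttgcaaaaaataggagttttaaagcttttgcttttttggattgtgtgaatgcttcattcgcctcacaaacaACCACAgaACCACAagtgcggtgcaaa
Runx3 P1 (chr4:135120395-135120694, plus strand): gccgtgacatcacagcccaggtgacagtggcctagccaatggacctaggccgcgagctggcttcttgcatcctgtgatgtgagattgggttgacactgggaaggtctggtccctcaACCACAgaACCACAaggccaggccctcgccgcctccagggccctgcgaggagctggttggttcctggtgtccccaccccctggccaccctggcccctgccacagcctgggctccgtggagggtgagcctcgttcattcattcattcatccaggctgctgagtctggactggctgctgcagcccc

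In the P1 promoters of Runx1 and Runx2 the shared run lay 26 to 43 and 21 to 38 bases after the start, and in Runx3 P1 it lay 119 to 136 bases before it. TGTGGT on either strand was found 2, 3 and 2 times in the P1 promoters of Runx1, Runx2 and Runx3, whereas 1.5% of all promoters held it at least 2 times and 15.0% held it at all. The P2 promoters of Runx1 and Runx3 had none. The C/EBP-binding letters TTGCNNAA occurred once among the 9 member promoters searched, in Runx2 P1, and in 10.2% of all promoters. The AP-1 letters TGANTCA were in none of the 9, against 6.99% of all. P1 and P2 also differed in base composition. GC content was 45.0%, 45.3% and 63.7% in the P1 promoters of Runx1, Runx2 and Runx3, with 2, 2 and 8 CpG dinucleotides, where the median promoter had 13. It was 69.0% and 77.3% in the P2 promoters of Runx1 and Runx3, with 35 and 45 CpG. A match of letters is a description of the sequence and shows no binding.

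Runx1, the RUNX gene best known from blood formation, spans chr16:92601466-92826074 on the minus strand. Its covered length was 502 bp at 0 h, 1327 bp at 4 h and 1440 bp at 12 h. The 4 h and 12 h values were alike, and both were over 2-fold above the one at 0 h. The log2 ratio was 1.40 for 4 h over 0 h and 1.52 for 12 h over 0 h. These ratios were higher than in 97.1% and 98.1% of all genes with a peak at both times. All of these peaks lay downstream of P2, none within 5 kb of P1, and the peak nearest to the P1 start was 130 kb away at all times. The P2 promoter, the CpG-rich start behind every Runx1 peak, has the sequence below, in which TGTGGT does not occur.
Runx1 P2 (chr16:92697280-92697579, minus strand): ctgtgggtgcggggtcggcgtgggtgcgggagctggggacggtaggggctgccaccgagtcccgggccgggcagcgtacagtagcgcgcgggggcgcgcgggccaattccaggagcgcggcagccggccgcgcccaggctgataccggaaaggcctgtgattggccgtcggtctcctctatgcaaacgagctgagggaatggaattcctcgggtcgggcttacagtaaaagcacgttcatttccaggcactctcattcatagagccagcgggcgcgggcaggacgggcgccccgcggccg

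At 0 h Runx1 held 2 narrow peaks, of 297 bp at 1.09 to 1.39 kb and of 205 bp at 2.82 to 3.03 kb from the P2 start. At 4 h there were 5 peaks between 0.99 and 3.72 kb. The outermost, of 417 bp at 3.31 to 3.72 kb, and one of 195 bp at 2.02 to 2.22 kb had no counterpart at 0 h. Both of these places were still marked at 12 h, with 473 and 229 bp. In between, the stretch at 2.48 to 3.16 kb was covered by 205 bp at 0 h, 295 bp at 4 h and 496 bp at 12 h, whereas the peak nearest the start had 297, 420 and 242 bp. Of the 825 bp that Runx1 gained at 4 h over 0 h, 123 bp lay in this first peak and the rest farther from P2. The outer limits were close to each other at 4 h and 12 h (3.72 and 3.65 kb).

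Runx2, known as a regulator of bone formation and expressed in periovulatory follicles, spans chr17:44495987-44814797 on the minus strand. Its window held 899 bp at 0 h, 3993 bp at 4 h and 895 bp at 12 h. The 4 h value stood apart from the other two, which differed by 4 bp. The ratio was 4.44-fold for 4 h over 0 h, with a log2 value of 2.15 above that of 99.5% of genes. For 12 h over 4 h the log2 ratio was -2.16, with 0.376% of genes lower. Equal totals at 12 h and 0 h hid different peaks, however, since the gene held 3 separate groups of them.

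**Figure D2:**
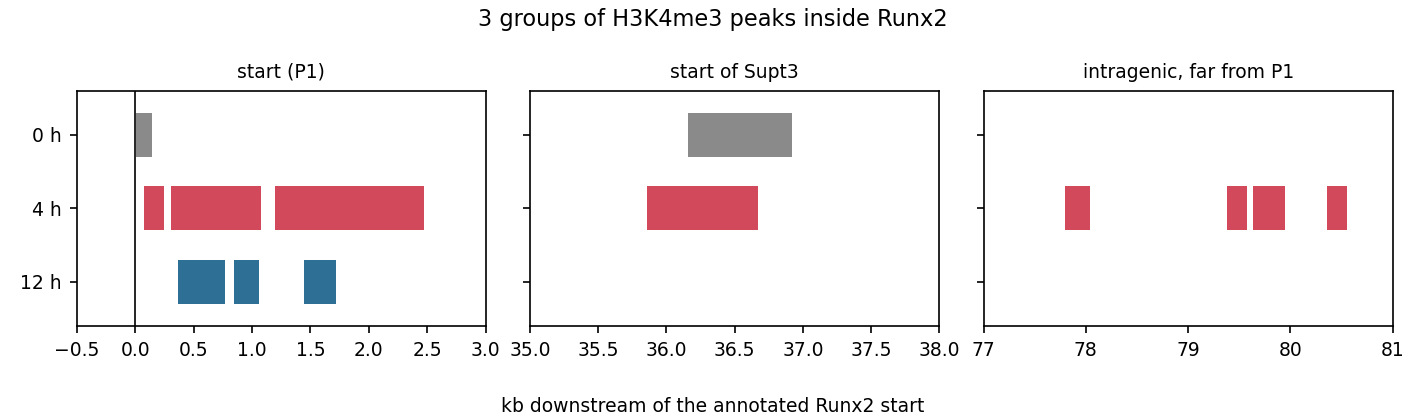
Horizontal bars show the H3K4me3 peaks inside Runx2 at 0 h, 4 h and 12 h by their distance in kb from the annotated start, in 3 windows. The start is marked at all times with the widest cover at 4 h, the peaks at the start of Supt3 are absent at 12 h, and the group beyond 77 kb is seen at 4 h.

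At the Runx2 start the covered length was 136 bp at 0 h, 2226 bp at 4 h and 895 bp at 12 h. The 0 h peak was as narrow as any in its library, so the ratios of 16.4-fold for 4 h over 0 h and 6.58-fold for 12 h over 0 h depend on that limit. At 4 h 3 peaks of 170, 776 and 1280 bp ran almost without a gap from 0.08 to 2.47 kb downstream of the start. At 12 h 3 peaks of 405, 215 and 275 bp lay between 0.36 and 1.72 kb, so both edges of the marked stretch had drawn in. The first 0.25 kb, which held the 0 h peak, had no peak at 12 h.

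Farther inside Runx2, 77.8 to 80.6 kb downstream of the start, 4 peaks of 194 to 311 bp were present at 4 h, with 949 bp together, and none at 0 h or 12 h. The gene's proximal promoter lies inside the gene as well, but its start is not listed in the reference used here. Whether these 4 peaks lie at that promoter was therefore not examined. A further peak, of 763 bp at 0 h and 818 bp at 4 h and absent at 12 h, lay 0.54 to 1.61 kb downstream of the start of Supt3. Supt3, which encodes a subunit of a histone acetyltransferase complex, overlaps Runx2 on the opposite strand. Without that peak Runx2 had 136, 3175 and 895 bp at 0 h, 4 h and 12 h, and its log2 ratio for 12 h over 0 h was 2.72 in place of -0.01. The call for 12 h over 0 h therefore depends on whether this peak is counted, a comparison added after the values were seen.

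Runx3, known for roles in neurons, T cells and the gut, spans chr4:135120645-135177990. It had 0 bp at 0 h, 4 h and 12 h, at P1 and at P2 alike. The nearest peaks lay 189 kb below the gene and 93.4 to 93.6 kb above it. Its P2 is CpG-rich like that of Runx1, so the members' CpG-rich starts were not all marked.

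Cbfb, which encodes the shared partner of the RUNX proteins, spans chr8:105170674-105217989 on the plus strand. It had 1169 bp at 0 h, 1385 bp at 4 h and 1518 bp at 12 h. The same 2 peaks were found at each time. The inner one, 0.14 to 0.80 kb from the start, had 636, 655 and 625 bp. The outer one began 0.86 to 0.90 kb from the start and had 533, 730 and 893 bp, so the differences at Cbfb came from its far edge, at 1.40, 1.63 and 1.75 kb. No comparison reached 2-fold.

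**Figure D3:**
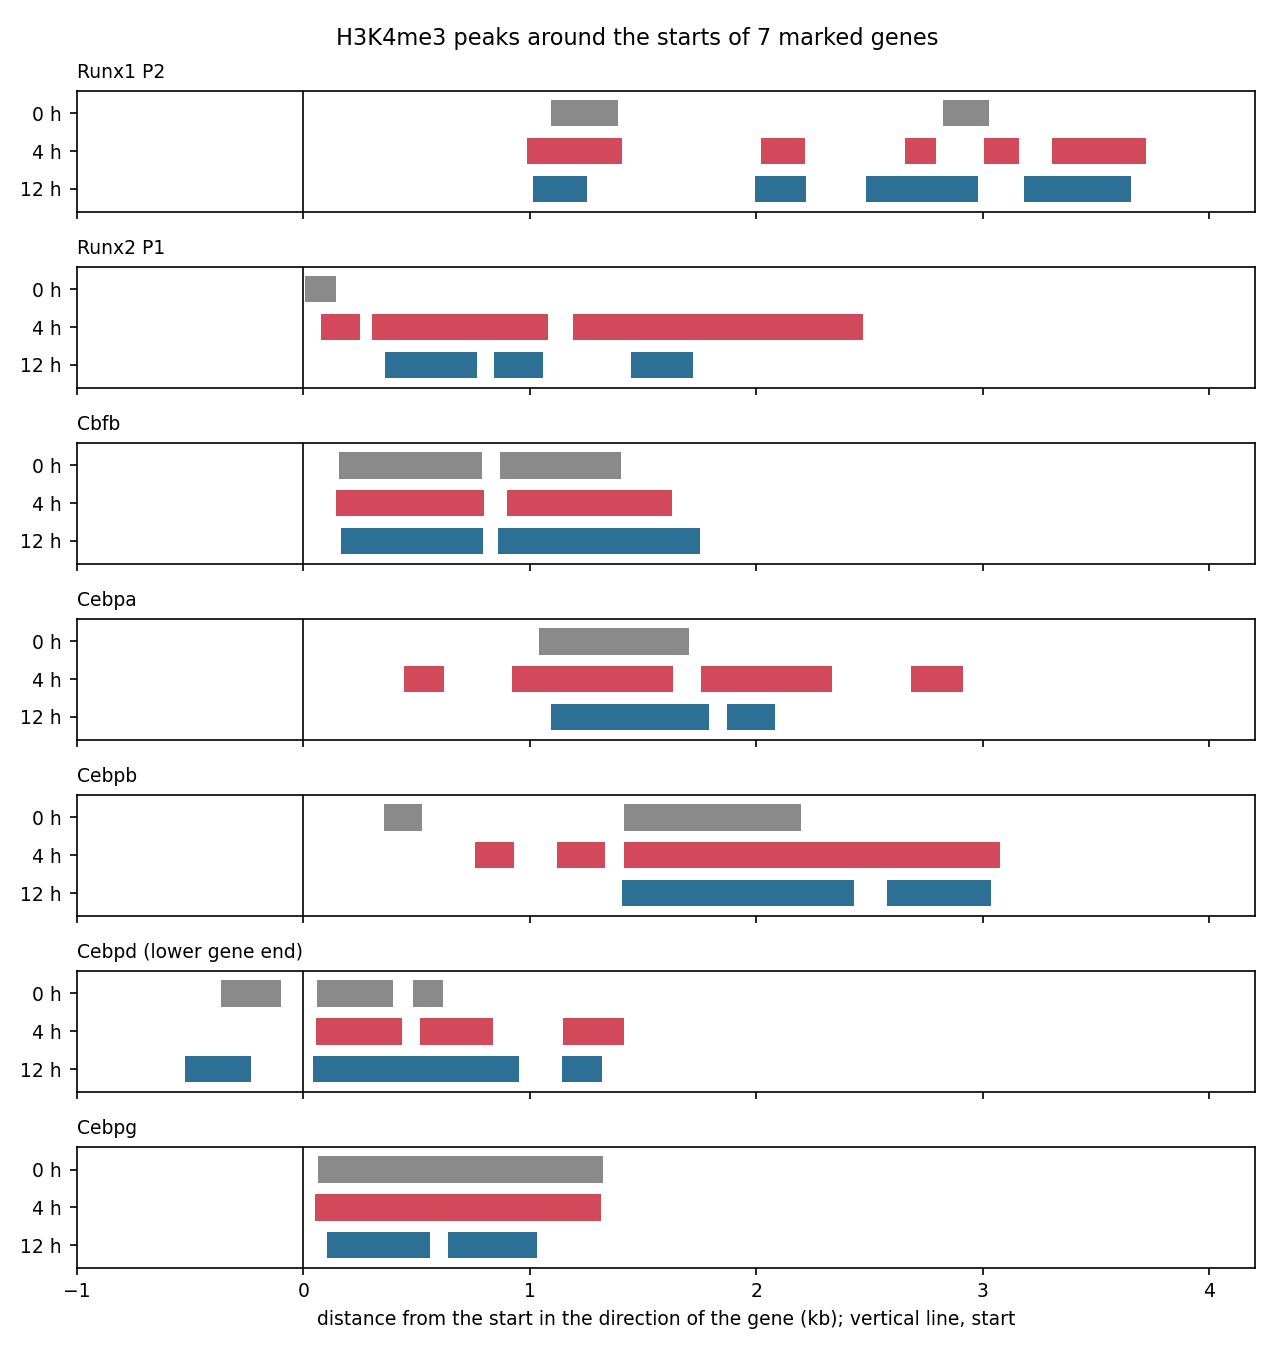
Each panel shows the peaks at 0 h, 4 h and 12 h along the distance in kb from a start, in the direction of the gene, for the 7 genes with peaks. For Cebpd, whose start is not listed, the distance runs from the lower end of the gene toward higher coordinates. Peaks lie to the right of the start in every gene with an annotated direction. In every gene shown but Cebpg they reach farther to the right at 4 h than at 0 h.

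Cebpa encodes C/EBP alpha, a factor of fat, liver and myeloid cells that acts with C/EBP beta in luteinizing granulosa cells. It spans chr7:35119293-35121928 on the plus strand. It had 661 bp at 0 h, 1703 bp at 4 h and 910 bp at 12 h. The value at 4 h was 2.58-fold that at 0 h, higher than in 96.9% of genes by log2 ratio, and the 12 h value lay nearer to 0 h. A core of 661, 713 and 695 bp, about 1 to 1.7 kb from the start, was present at all times. Of the 4 peaks at 4 h, those at 0.45 to 0.62 kb and 2.68 to 2.91 kb were found at that time only, and one at 1.76 to 2.34 kb was shorter at 12 h, with 215 bp against 581 bp at 4 h. For 12 h over 4 h the log2 ratio of Cebpa was -0.90, short of the 2-fold limit, and it passed that limit (-1.32) when peaks within 1 kb were joined. On the side of Cebpg, its neighbour among the members, the nearest peak outside the Cebpa window was 62.8 kb away at 0 h, where it was the Cebpg peak itself, but 38 kb away at 4 h and 38.1 kb at 12 h.

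Cebpb encodes C/EBP beta, the family member most tied to ovulation, and spans chr2:167688915-167690432 on the plus strand. Its covered length was 953 bp at 0 h, 2046 bp at 4 h and 1483 bp at 12 h. All 3 values differed, with 4 h the highest at 2.15-fold over 0 h. The log2 ratio of 1.10 exceeded that of 94.5% of genes. Of the 1093 bp gained at 4 h over 0 h, 876 bp came from a peak that began at about 1.41 kb from the start at every time and whose far edge moved. It was 784 bp wide at 0 h and 1660 bp at 4 h, and 2 peaks with 1483 bp together filled the same place at 12 h. This stretch runs past the end of Cebpb and over the starts of the noncoding gene A530013C23Rik, at 167690759 and 167691177, so the peak cannot be assigned to either gene. Small peaks inside Cebpb were each found at a single time, namely one of 169 bp before hCG and a pair of 172 and 214 bp at 4 h. Counting only 1 kb around the gene, the log2 ratio for 4 h over 0 h was 0.64, and with peaks within 1 kb joined it was 0.33, so the 2-fold call at Cebpb was lost under both.

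The Cebpb promoter is shown because it alone among the 9 member promoters held TGACG, the core of the cyclic AMP response element, on either strand. It had 3 copies, in capitals below as TGACG or CGTCA, and no full TGACGTCA, of which TGACG is a part and which 2.23% of all promoters held. TGACG occurred in 23.6% of all promoters and at least 3 times in 1.38%.
Cebpb (chr2:167688665-167688964, plus strand): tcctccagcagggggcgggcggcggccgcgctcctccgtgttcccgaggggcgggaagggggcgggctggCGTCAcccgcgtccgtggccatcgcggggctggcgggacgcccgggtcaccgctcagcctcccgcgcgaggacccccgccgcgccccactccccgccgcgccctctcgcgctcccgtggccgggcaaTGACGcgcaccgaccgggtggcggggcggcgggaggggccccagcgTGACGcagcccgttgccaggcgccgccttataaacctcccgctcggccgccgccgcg

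Cebpd encodes C/EBP delta, known from inflammatory responses, and spans chr16:15887286-15889545. It had 741 bp at 0 h, 977 bp at 4 h and 1377 bp at 12 h, the order of the times. The log2 ratio was 0.89 for 12 h over 0 h and 0.50 for 12 h over 4 h, both below 2-fold. With equal numbers of the widest peaks from each library, the ratio for 12 h over 0 h became 1.19 and passed it. Distances here are counted from the lower end of the gene. A stretch from 0.04 to 0.95 kb held 471 bp in 2 peaks at 0 h, 704 bp in 2 peaks at 4 h and 910 bp in 1 peak at 12 h. A peak at 1.14 to 1.42 kb appeared at 4 h with 273 bp and had 177 bp at 12 h, and one below the gene had 270 bp at 0 h, 0 at 4 h and 290 bp at 12 h.

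Cebpg encodes C/EBP gamma, a partner that lacks an activation domain of its own, and spans chr7:35046422-35056566 on the minus strand. Peaks covered 1258 bp of it before hCG, 1261 bp at 4 h and 849 bp at 12 h. A single peak from 0.05 to 1.32 kb downstream of the start, nearly identical at 0 h and 4 h, was split into 2 of 394 and 455 bp at 12 h. The log2 ratio for 12 h over 4 h was -0.57, with 17.9% of genes lower. The predicted gene Gm45095 starts at 35055483, under this peak at 0 h and 4 h.

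Of the 8 genes, 7 had a peak at each time, against 56.3%, 58.3% and 56.2% of all protein-coding genes at 0 h, 4 h and 12 h. For 4 h over 0 h, 4 of the 7 were called broader and 0 narrower, where 12.1% of 13075 genes were broader and 5.06% narrower. The members were chosen with earlier results of these data known, so such shares are given for description only. Narrow marks pass a 2-fold limit more easily, so genes with at least 500 bp at either time, as all 7 had, were also counted, and 7.55% of 10909 were broader. All 7 members had more covered bp at 4 h than at 0 h, Cebpg by 3 bp. Their median log2 ratio was 1.10, the value of Cebpb, against 0.12 over all genes. This median was 0.64 with 1 kb around the gene, 0.47 with peaks within 1 kb joined and at least 1.04 under the other settings. At a limit of 3-fold, Runx2 was the member that remained, where 7.65% of genes were broader.

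For 12 h over 4 h, 0 members were broader and Runx2 was narrower, where 4.74% and 11.9% of 13085 genes were called. Among genes with at least 500 bp, 6.79% were narrower. A count of 1 in 7 is near these shares, and the members' median log2 ratio of -0.46 stood beside -0.14 over all genes. By size, 3 members were higher at 12 h than at 4 h (Runx1, Cbfb and Cebpd) and 4 were lower (Runx2, Cebpa, Cebpb and Cebpg). The small differences at Runx1 and Cbfb turned round under another setting, with log2 ratios of -0.05 at Runx1 when peaks within 1 kb were joined and -0.05 at Cbfb with 10 kb around the gene. For 12 h over 0 h, Runx1 was called broader and 0 members narrower, where 9.08% and 9.26% of 12885 genes were. The median log2 ratio was 0.46 in the members and -0.02 over all genes, with 5 members higher at 12 h. One of the 5, Cebpb, had a log2 ratio of 0.64 that became -0.18 with peaks joined. The comparisons share libraries, so a high value at 4 h enters both of its comparisons with opposite sign.

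**Figure D4:**
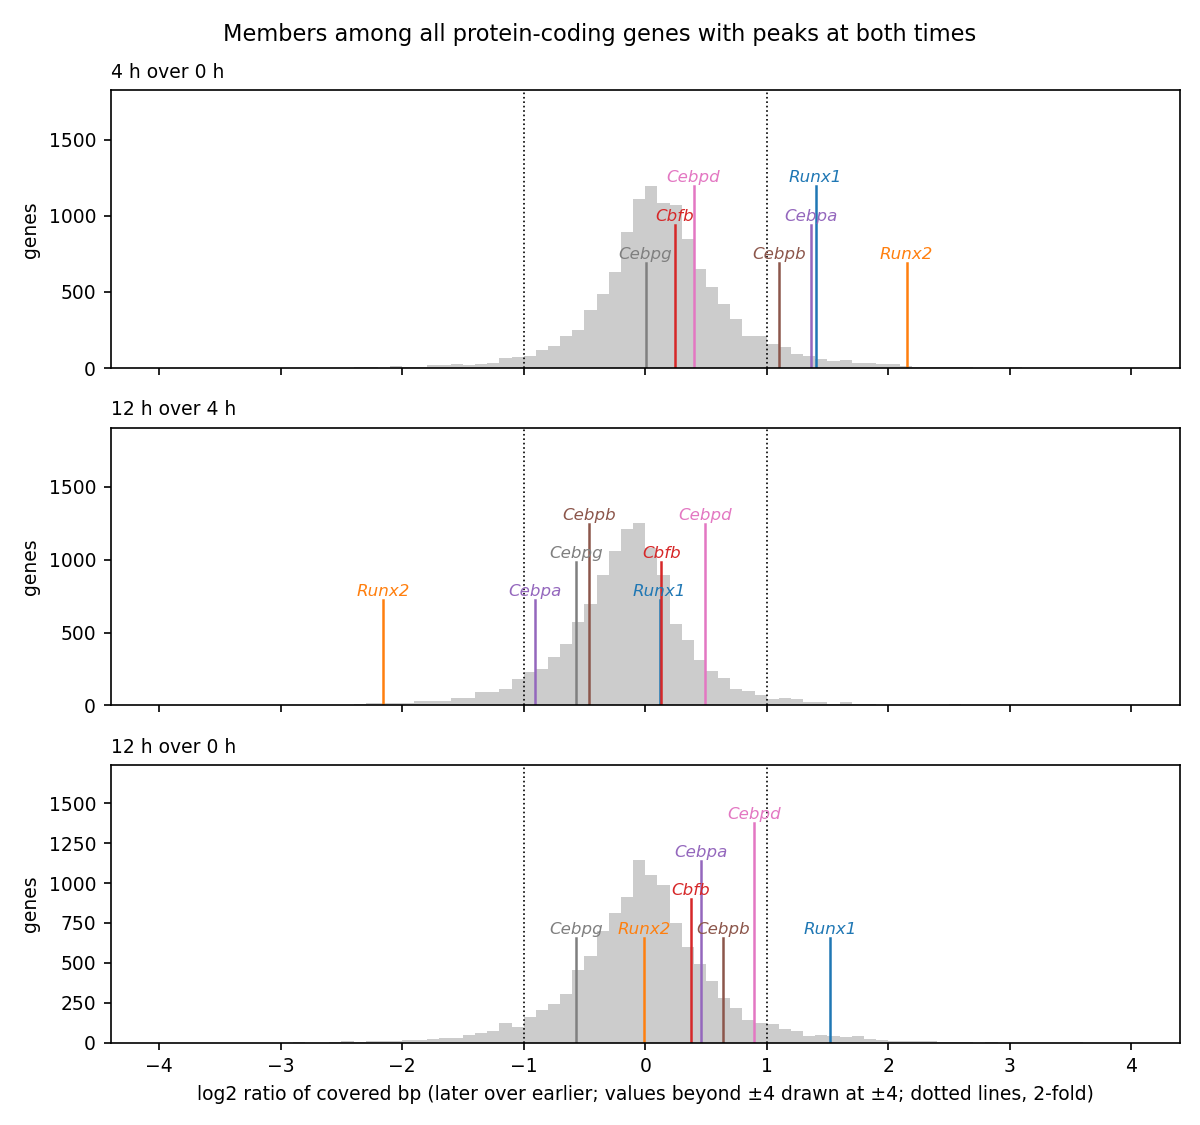
Grey histograms give the log2 ratio of covered bp (later over earlier time) of all protein-coding genes with a peak at both times, and coloured lines mark the 7 members with peaks. For 4 h over 0 h, Runx1, Runx2, Cebpa and Cebpb lie beyond the dotted 2-fold line, and for 12 h over 4 h Runx2 lies beyond it on the lower side.

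Counted as single places, the members' peaks formed 25 domains of overlapping peaks. Of these 8 were found at all times, 8 at 2 times and 9 at 1 time, of which 8 were specific to 4 h and 1 to 0 h. Among 26838 such domains of all peaks, 49.8% were found at all times and 14.6% at 4 h alone. With peaks within 1 kb joined, 7 of the members' 10 domains were found at all times and 2 at 4 h alone, both in Runx2, where 73.2% and 7.58% of all 14809 joined domains were. Of the 26 peaks at 4 h, 42.3% were overlapped at 0 h and 57.7% at 12 h, where 73.8% and 72.3% of all 4 h peaks were. The 12 h peaks were overlapped by 4 h peaks in 17 of 18 cases, or 94.4%, where 84.4% of all 12 h peaks were. At the 6 annotated starts with peaks, all covered bp lay downstream of the start and the start base itself was under no peak. Neither feature is particular to these genes, since among 5662 lone starts with a peak within 5 kb at 4 h, 63.0% had covered bp on the downstream side alone and 9.96% had the start base covered. Cebpd, whose start the reference does not list, is not among the 6, and it had a peak below its lower end at 0 h and 12 h.

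Genes with the most similar course over the 3 times were found by the distance in log2(covered bp + 100) among 11200 genes with at least 500 bp at some time. For Runx1 these were Arhgap23, Zfp777 and Nr1h4, for Cebpa Fam102b, Acsl4 and Arhgap10, and for Cebpb Ier5, Rreb1 and Cog8. For Runx2 the nearest was Supt3, with 899, 3277 and 895 bp at 0 h, 4 h and 12 h, whose window contains the Runx2 start. The peak near the Supt3 start also lies in both windows, so these genes share peaks and are not independent matches. Next came Ncoa7, with 998, 2512 and 865 bp, and Dyrk1a, with 890, 3022 and 1358 bp. Distances were 0.05 to 0.15 for the neighbours of Runx1, Cebpa and Cebpb. They were 0.28, 0.66 and 0.68 for Supt3, Ncoa7 and Dyrk1a, so the matches to Runx2 were the loosest.

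Partners, relatives and regulators of both families were examined as a list of 34 genes, also chosen with earlier results of these data known. Of the 32 with a peak, 4 were broader at 4 h than at 0 h and 0 narrower, with a median log2 ratio of 0.18, close to that of all genes. These counts are near the background of 12.1% broader and 5.06% narrower genes. The 4 were Ets1, a partner of RUNX1 on DNA, the corepressor genes Tle1 and Tle3, and Tle5 of the same family. Tle1 had 944, 1894 and 1076 bp at 0 h, 4 h and 12 h, and Tle3 had 337, 1117 and 620 bp. Tle5 had 410, 1097 and 1278 bp. Ets1 had 0, 152 and 362 bp, and its 4 h value was close to the narrowest peak width at that time, 139 bp. At 12 h against 4 h, 4 of 34 genes were broader and 1 narrower, where 4.74% and 11.9% of all genes were. At 12 h against 0 h, 5 of 34 were broader and 0 narrower, where 9.08% and 9.26% of all genes were. Among them the C/EBP relative Cebpe had 289 bp at 12 h and 0 before, the corepressor gene Tle2 had 152 bp, the narrowest width in that library, and 0 before, and Trib3, a pseudokinase gene, had 207, 196 and 513 bp. The narrower gene was Runx1t1, a corepressor gene, with 323, 498 and 167 bp. At Ep300 and Crebbp, the acetyltransferases that both families recruit, covered bp differed little, with 2081, 1993 and 1917 bp at Ep300 and 2066, 2169 and 1938 bp at Crebbp.

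Granulosa genes that earlier work linked to these factors formed a list of 14, chosen with earlier results of these data known. At 4 h against 0 h, 7 of the 10 with a peak were broader and 0 narrower, where 12.1% and 5.06% of all genes were. The median log2 ratio was 0.73 over the 4 genes marked at both times. At 12 h against 4 h, 3 of the 12 with a peak were broader and 4 narrower, where 4.74% and 11.9% of all genes were. At 12 h against 0 h, 6 of 9 were broader and 0 narrower, where 9.08% and 9.26% of all genes were. Cyp11a1, which encodes the enzyme of the first step of steroid synthesis, had 0, 437 and 353 bp at 0 h, 4 h and 12 h. Abcb1b, a transporter gene, had 0, 295 and 844 bp. Ptgs1, the constitutive prostaglandin synthase gene, had 704 bp at 12 h and 0 at 0 h and 4 h. Ptgs2, Ptx3 and Sult1e1 were marked at 4 h only, Star had its widest cover then, and Sfrp4 had 137, 645 and 366 bp. Hapln1 and Mmp13 had no peak at any time.

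The cell type was checked by its markers, since RUNX and C/EBP genes are also active in leukocytes. Of 12 granulosa markers 10, 11 and 9 had a peak at 0 h, 4 h and 12 h, and their summed covered bp were 15262, 11414 and 6837. The fall was uneven within the list. Between 0 h and 12 h, Hsd17b1 went from 3146 to 349 bp and Cyp19a1 from 2045 to 382 bp. Nr5a1, with 1704 and 1531 bp, and Fst, with 1484 and 1220 bp, differed much less. Whether the falling sum reflects fewer granulosa cells or a change at single genes was not tested. Of 12 leukocyte markers 2, 3 and 2 had a peak, with 1328, 2777 and 1752 bp, nearly all of it at Cd68 and Coro1a. Adgre1, Itgam, Lyz2, Spi1 and Csf1r were at 0 at all times, and Ptprc had 139 bp at 4 h and 0 otherwise. Endothelial markers had 2, 2 and 1 of 10 marked, with 536, 517 and 164 bp, and Pecam1 and Cdh5 were at 0. Kdr had 0, 347 and 164 bp, and Erg had 170 bp at 4 h only. Sox18 and Esam were marked at 0 h only, with 302 and 234 bp. Theca markers had 3 of 6 marked at each time, with 2040, 3444 and 2692 bp, and Cyp17a1 and Insl3 were at 0. The marked ones were Ptch1 with 903, 1670 and 1199 bp, Hhip with 273, 985 and 273 bp, and Gli1. Gli1 was lowest at 4 h, with 864, 789 and 1220 bp. Of 7 oocyte markers, Gdf9 alone was marked, with 810, 1166 and 530 bp. Of 5 genes of the skeletal programme of Runx2, Spp1 alone was marked, with 153 bp at 12 h. The leukocyte and theca sums and Gdf9, like the values of Runx2, Cebpa and Cebpb, were highest at 4 h. Their part in the members' values was not tested. Whether the peaks counted at Cd68, Coro1a and Gdf9 belong to neighbouring genes was not examined.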

How the data were processed

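H3K4me3 chromatin immunoprecipitation libraries of mouse granulosa cells at 0 h, 4 h and 12 h were read from 1 peak list each. The authors deposited peak positions and names alone, without scores, heights or read counts. CASAVA 1.8, Bowtie2 2.2.3 and MACS2 2.0.9 are named, with mm10, in the submitters' processing notes. No source used here states the peak threshold or an input control. Libraries had 18 PCR cycles, per the labels' protocols.

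Peaks on the autosomes, X and Y were kept. Gene spans came from RefSeq on GRCm38.p6. Covered bp is the union of peak bases in the gene and 5 kb around it, and a call needs a 2-fold difference or a peak at only one time. Genes in the lists are named when called, at most 8 per list, by the difference in bp, and those with no call are named after their values were seen. The members and lists were chosen with earlier results of these data known. The calling was run on data in which peaks were added to genes without any and all peaks of other genes were removed. A change in breadth at a gene marked at both times was not simulated, so the 2-fold limit itself was not tested. Python 3.11.15, numpy 2.4.6 and pandas 2.3.3 were used. Alternatives changed the window, width filter, peak number, joining, fold and overlap.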

Additional observations from a re-analysis of the deposited data

How the results depend on the processing

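No paired analysis was possible because each time has 1 library. The number of members with a peak was 7 at each time under every alternative run, and for 4 h over 0 h none of the 7 was narrower by any amount under them. Runx2, called broader at 4 h, was called under each. Of the members' counts, those broader at 4 h than at 0 h numbered 1 at a 3-fold limit, where 7.65% of all genes were. Those narrower at 12 h than at 4 h numbered 2 with peaks within 1 kb joined and 2 at a 1.5-fold limit. Of all genes, 15.4% and 21.9% were narrower under these settings. Those broader at 12 h than at 0 h numbered 2 with equal numbers of the widest peaks, 3 at 1.5-fold, 0 at 3-fold and 2 without the Supt3 peak. The shares of all genes were 10.3%, 15.5%, 5.87% and 9.10%, in that order. Without the Supt3 peak, an alternative chosen after seeing the data, the Runx2 log2 ratio was 2.72. With peaks joined, the members' median log2 ratio for 4 h over 0 h was 0.47, and their domains numbered 10.

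With a 50% reciprocal overlap, 7 of the 13 member peaks at 0 h were matched at 4 h and 5 at 12 h. Of the 26 at 4 h, 7 were matched at 0 h and 9 at 12 h. Of the 18 at 12 h, 5 were matched at 0 h and 9 at 4 h. The share of all peaks matched under this rule was not counted, so these counts are given for description only. In the list of partners and relatives, for 4 h over 0 h the broader genes numbered 2 with equal numbers, 8 at 1.5-fold and 2 at 3-fold. The shares of all genes were 11.2%, 21.4% and 7.65%. The narrower ones numbered 2 with 1 kb windows and 1 at 1.5-fold, where 5.59% and 9.51% of all genes were. For 12 h over 4 h the broader numbered 2 with 1 kb windows, 2 without narrow peaks and 2 at 3-fold. The shares of all genes were 5.18%, 5.77% and 3.14%. The narrower numbered 2, 5 and 0 under these, 4 with joined peaks and 6 at 1.5-fold. Of all genes, 12.6%, 13.7%, 7.52%, 15.4% and 21.9% were narrower, in that order. For 12 h over 0 h the broader numbered 9 with joined peaks and 8 at 1.5-fold, where 10.6% and 15.5% of all genes were. The narrower numbered 1 with 1 kb windows, 5 without narrow peaks, 1 with joined peaks and 3 at 1.5-fold. The shares of all genes were 9.97%, 11.4%, 12.4% and 16.9%. The cause was not tested. The files give no depth, so a peak missed for lack of reads cannot be told from an unmarked site.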
